A study of Mus musculus with 16 samples.

Results

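Messenger RNA of 10 genes of the transforming growth factor beta (TGF-beta) pathway was followed in cultured mouse small cell lung cancer cells. The genes were the ligands Tgfb1, Tgfb2, Tgfb3 and Inhba, the latent binding protein Ltbp1, the receptors Tgfbr1, Tgfbr2 and Tgfbr3, and the signal transducers Smad3 and Smad7. They were chosen by name, and every probe set that the platform annotation gives to them was read, which came to 17 probe sets among 22690, for 10 of 12393 named genes. Dissociated tumours had been the source of both lines, 3583T3 and 3151T4. Cells of each were profiled with stably expressed Nfib, with Mycl1, with Nfib+Mycl1 and untransfected (control), on 2 arrays per line and vector, which gave 8 groups and 16 arrays. Nfib encodes nuclear factor I/B, a DNA-binding regulator, and Mycl1 (current symbol Mycl) encodes L-Myc, both amplified in some small cell lung cancers. The Nfib construct was MSCV-Nfib-PGK-Neo with a FLAG-tagged mouse cDNA and G418 selection, and the Mycl1 construct was MSCV-L-myc-PGK-Puro with puromycin selection. Control cells carried no vector, so the vector backbone and the drug selection cannot be told apart from the transgene in any comparison with control. Only 2 lines were studied, and whether arrays of 1 group came from different cultures is not stated in the labels. The p-values of changes within lines and of their differences therefore reflect array-to-array spread that may be no more than technical. Those over both lines reflect this spread together with how far the 2 lines differed in their response.

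TGF-beta ligands are secreted in latent form, held by their own propeptide and by latent binding proteins that tie them to the extracellular matrix. The released ligand binds the type II receptor Tgfbr2, which recruits and phosphorylates the type I receptor Tgfbr1, while the co-receptor Tgfbr3 (betaglycan) presents ligand and is needed mainly for TGF-beta 2. The type I receptor phosphorylates Smad2 and Smad3, which enter the nucleus with Smad4, and Smad7 is an inhibitory SMAD that blocks the type I receptor. In many epithelia the pathway restrains proliferation, and in advanced carcinoma and in fibroblasts it is known for matrix production and mesenchymal transition.

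All values are log2 array signals, in which the values of genes without detectable signal lie near 2, and a difference of 1 is a doubling of the signal. A probe set was called where its Benjamini-Hochberg adjusted p from limma, over the 15799 probe sets with a signal above 4 on at least 2 arrays, was under 0.05. The Mycl transgene gave 9.08 to 10.82 on the Mycl1 arrays and 2.24 to 2.47 on the control arrays. The array labelled 3583T3 Nfib replicate 2 read 10.22 for it and the array labelled 3583T3 Nfib+Mycl1 replicate 2 read 2.67, which goes against both labels. These 2 arrays also correlated best with an array of the other group, and the counts of called members are therefore given with and without them. The 4 Nfib probe sets did not check the Nfib label, since the median of the Nfib arrays was below that of the control arrays in 3 of them and 4.44 against 4.43 in the other. Of 12 neuroendocrine markers on the array, Chga, Chgb, Syp, Dll3, Grp, Scg3 and Syt1 stayed at or below 3.29 on all 16 arrays, whereas Ncam1 was at 11.52 or higher and Uchl1 at 7.88 or higher, so most defining markers of the labelled tumour type were absent. Of 15 leukocyte markers 14 were tested, and 12 or 13 of these per vector fell against control. Over all probe sets, 8.46%, 9.96% and 29% were called with Nfib, Mycl1 and Nfib+Mycl1. The median change of the tested markers was -4.29 with Nfib, -4.36 with Mycl1 and -4.61 with Nfib+Mycl1. The summed signal of this list was 7.75 to 9.37 on the vector arrays and 11.73 to 13.66 on the control arrays, on the log2 scale. The macrophage receptor gene Csf1r, for example, was at 2.47 to 4.03 on the vector arrays and at 6.16 to 8.60 on the control arrays. Other markers of the list overlapped. Cd14 was at 6.29 to 8.29 on the vector arrays and 6.76 to 8.52 on the control arrays. Cd53 reached 8.57 on a vector array, against 7.57 to 10.18 on the control arrays. Fewer cells of a type and less RNA per cell cannot be told apart in such bulk samples, and the part of these markers in the comparisons with control was not tested.

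The 10 genes covered most of the array's range. Ltbp1 was the brightest on its probe set, with 12.26, a median of 12.86 and 13.24 as the lowest, middle and highest of the 16 arrays, followed by Tgfbr2 (11.30, 12.15 and 12.67) and Tgfb2 (10.26, 11.37 and 12.18). Levels of different probe sets are not comparable per transcript, so these figures describe detection and give no ranking of abundance. Smad7, Tgfbr1, Inhba and Tgfb3 were well detected on every array, between 7.88 and 10.63, whereas Tgfb1 lay between 3.81 and 7.42, Smad3 between 3.76 and 5.31, and Tgfbr3 between 2.15 and 4.90. Of the 17 probe sets, 14 passed the filter and every gene had at least 1 that did, Tgfbr3 through 3 Nfib arrays above 4. The probe sets 1420893_a_at (Tgfbr1), 1422019_at (Tgfbr2) and 1450471_at (Smad3) were above 4 on 0 arrays and were not tested. The 3 Tgfb2 probe sets agreed closely over the 16 arrays (Pearson r 0.90, 0.92 and 0.97, as a description), the brighter pair for Tgfbr2 less so (r 0.85), and the tested Tgfbr1 pair least (r 0.50).

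**Figure D1:**
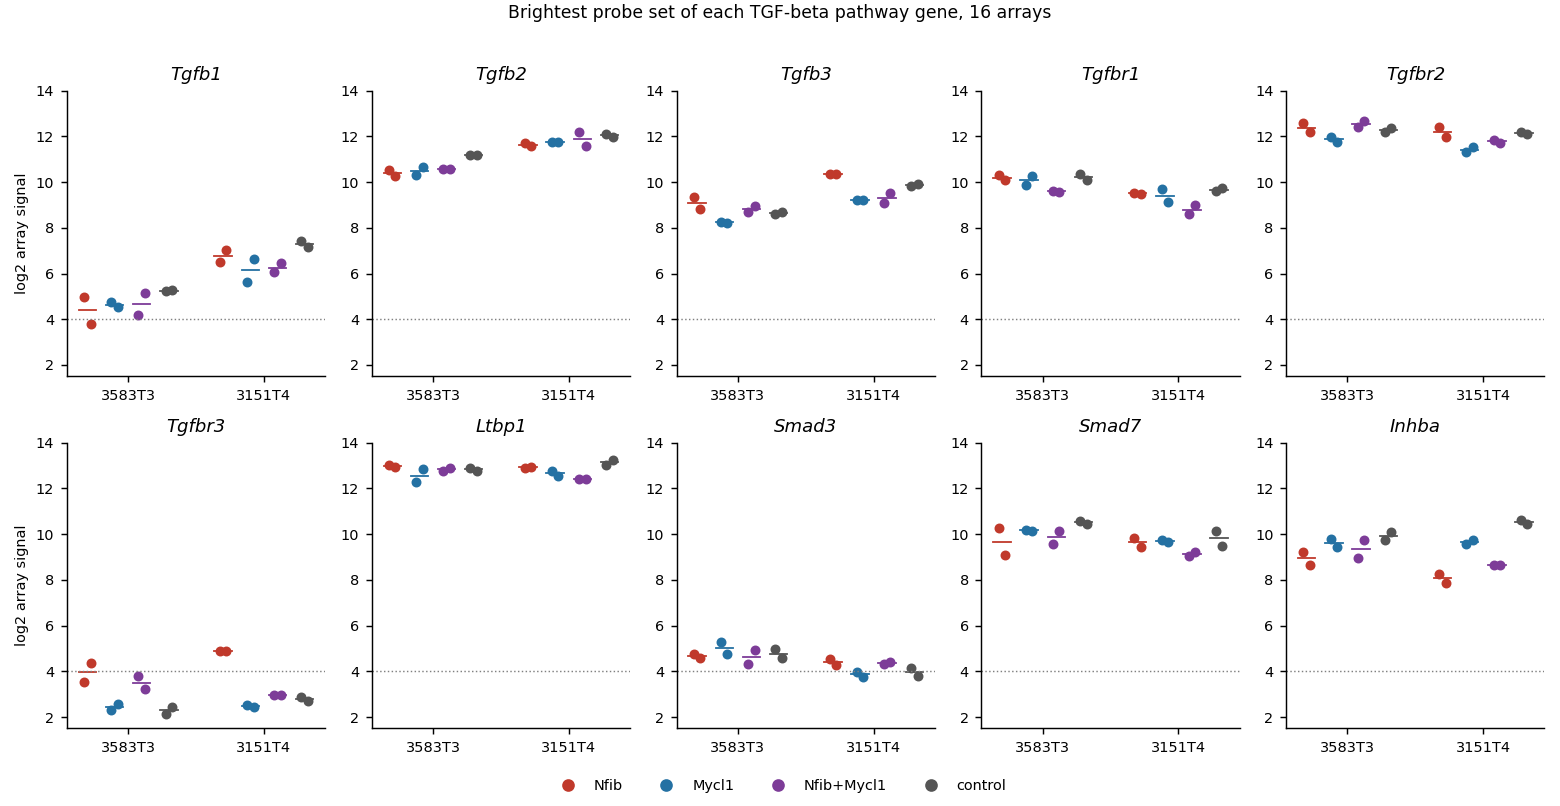
Log2 array signal (vertical axis) of the brightest probe set of each of the 10 genes on all 16 arrays, grouped by line (horizontal axis) and, from left to right within a line, by Nfib, Mycl1, Nfib+Mycl1 and control; each point is 1 array, short lines are group means of 2 arrays, and the dotted line marks the detection filter at 4. Tgfbr3 exceeded 4 on 3 Nfib arrays alone, Inhba was lowest on the 3151T4 Nfib arrays (8.26 and 7.88), and Tgfb1 lay higher in 3151T4 than in 3583T3 throughout.

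From the RefSeq promoter sequences (GRCm38.p6), 9 windows for 7 of the 10 genes were used, with none for Tgfb3, Tgfbr3 and Smad7. Some windows of the members were left out by chromosome, so a gene without a window here may still have one in the source. The 250 bases before the start of Tgfb2 and Inhba, the ligands that fell with vectors, and of Tgfbr2, which fell with Mycl1, are shown because both transgenes encode DNA-binding factors. Capitals mark the nuclear factor I half-site TTGGC (or GCCAA on the other strand) and the E-box CACGTG bound by MYC family proteins, each searched on both strands and not overlapping each other here.
Tgfb2, chr1:186705990-186706239, minus strand: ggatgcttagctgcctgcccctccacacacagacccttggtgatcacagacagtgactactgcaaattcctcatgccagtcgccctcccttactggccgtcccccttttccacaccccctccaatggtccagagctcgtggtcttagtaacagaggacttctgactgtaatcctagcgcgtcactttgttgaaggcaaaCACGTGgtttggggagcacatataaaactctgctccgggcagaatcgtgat
Inhba, chr13:16011601-16011850, plus strand: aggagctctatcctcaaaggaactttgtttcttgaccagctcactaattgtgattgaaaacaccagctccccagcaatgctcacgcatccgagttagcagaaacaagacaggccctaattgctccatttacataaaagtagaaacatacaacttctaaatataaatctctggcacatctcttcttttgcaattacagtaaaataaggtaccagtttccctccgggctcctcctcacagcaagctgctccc
Tgfbr2, chr9:116175364-116175613, minus strand: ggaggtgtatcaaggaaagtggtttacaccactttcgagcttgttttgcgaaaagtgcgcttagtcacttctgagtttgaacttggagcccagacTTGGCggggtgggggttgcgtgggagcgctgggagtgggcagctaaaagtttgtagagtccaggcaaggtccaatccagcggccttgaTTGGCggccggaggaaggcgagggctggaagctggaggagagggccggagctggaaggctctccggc
Tgfb2 held 1 E-box, at bases -51 to -46 counted from the start, and no TTGGC half-site. Tgfbr2 held 2 half-sites, at -155 to -151 and at -67 to -63, and no E-box. Inhba held neither motif. Over all 32851 promoter windows of this length, 41.5% held a half-site, 6.02% an E-box and 0.0365% a pair of half-sites 5 bases apart (TTGGCNNNNNGCCAA), which none of the 9 windows held. These are matches of letters, not binding sites, and a missing match says nothing about either factor.

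Against control, Tgfb2 was called lower with every vector and Inhba with Nfib and Nfib+Mycl1. With Nfib, 4 of the 14 tested probe sets were called (8.46% of all tested probe sets), 1 higher (Tgfbr3) and 3 lower (Inhba and 2 of Tgfb2). With Mycl1, 3 were called, all lower (2 of Tgfb2 and 1 of Tgfbr2), against 9.96% of all probe sets. With Nfib+Mycl1, 5 were called, all lower (2 of Tgfb2, Tgfbr1, Smad7 and Inhba), against 29% of all probe sets, so that the last share was close to the background. Without the 2 arrays that go against their labels the counts were 5 (2 higher, 3 lower), 5 (all lower) and 6 (all lower), against 7.89%, 17.5% and 32.7% of all probe sets. Tgfbr3 entered the test through Nfib arrays alone, so it had to differ from control, and its place in the Nfib counts is no evidence of a change. The median change of the 14 probe sets was -0.06, -0.43 and -0.29, beside medians of 0.02, 0.04 and 0.04 over all tested probe sets. The 3 comparisons share the 4 control arrays, so their likeness is not independent.

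**Figure D2:**
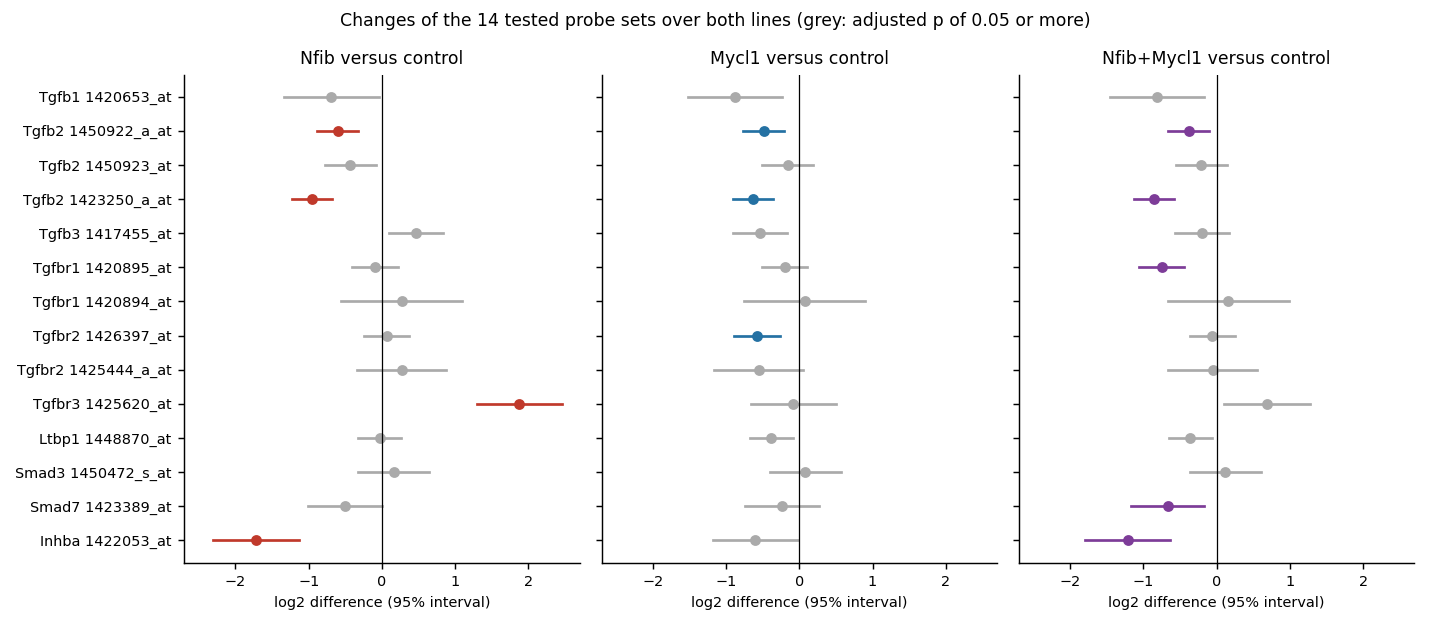
Log2 difference from control over both lines (horizontal axis, bars 95% confidence intervals) for the 14 tested probe sets (vertical axis) with Nfib, Mycl1 and Nfib+Mycl1, 4 arrays per vector; coloured points passed an adjusted p of 0.05 and grey ones did not. Tgfbr3, which entered the test through Nfib arrays alone, lies to the right with Nfib (1.88), Inhba to the left with Nfib (-1.72) and Nfib+Mycl1 (-1.22), and Tgfb2 1423250_a_at lies left of 0 in all 3 panels.

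Tgfb2 encodes TGF-beta 2, the isoform that depends most on betaglycan, and it was the member called with every vector. On probe set 1423250_a_at the 3583T3 arrays read 9.59 and 9.53 with Nfib, 9.77 and 9.78 with Mycl1, 9.44 and 9.62 with Nfib+Mycl1, and 10.71 and 10.59 in control. The 3151T4 arrays read 11.39 and 10.91 with Nfib, 11.62 and 11.54 with Mycl1, 11.42 and 11.33 with Nfib+Mycl1, and 12.01 and 11.92 in control. Within each line every vector array lay below both control arrays. Tgfb2 fell by 0.96 with Nfib (SE 0.13, 1.94-fold, adjusted p 0.000319), by 0.63 with Mycl1 (SE 0.13, 1.55-fold, adjusted p 0.0132) and by 0.86 with Nfib+Mycl1 (SE 0.13, 1.81-fold, adjusted p 0.000716), and these calls held in every fit that left out 1 array. Probe set 1450922_a_at moved less, by -0.60 with Nfib (adjusted p 0.0101), -0.48 with Mycl1 (adjusted p 0.0347) and -0.38 with Nfib+Mycl1 (adjusted p 0.0411). Its Mycl1 call was lost in 7 of the 16 fits that left out 1 array (any control array, 3583T3 Mycl1 replicate 1 or either 3151T4 Mycl1 array), with changes of -0.56 to -0.41 and adjusted p of 0.0584 to 0.0913. Its Nfib+Mycl1 call was lost in 8 of 16 (any control array but 3151T4 replicate 4, any Nfib+Mycl1 array but 3151T4 replicate 3, 3151T4 Nfib replicate 4 or 3151T4 Mycl1 replicate 4), at -0.42 to -0.30 and adjusted p of 0.0503 to 0.129, and without the 2 arrays that go against their labels (-0.36, adjusted p 0.0733). The third probe set, 1450923_at, passed in none of the 3 comparisons (-0.43, adjusted p 0.126 with Nfib, -0.16, adjusted p 0.548 with Mycl1, and -0.21, adjusted p 0.344 with Nfib+Mycl1).

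Inhba encodes the beta A subunit of activins and inhibin A, ligands that signal through activin receptors to the same Smad2 and Smad3. In 3583T3 it read 9.24 and 8.66 with Nfib, 9.77 and 9.42 with Mycl1, 8.98 and 9.75 with Nfib+Mycl1, and 9.76 and 10.09 in control. The 3151T4 arrays gave 8.26 and 7.88 with Nfib, 9.59 and 9.75 with Mycl1, 8.66 and 8.67 with Nfib+Mycl1, and 10.63 and 10.44 in control. All 4 Nfib arrays lay below all 4 control arrays, and so did the 4 Nfib+Mycl1 arrays, although narrowly (9.75 against 9.76). Inhba fell by 1.72 with Nfib (SE 0.28, 3.30-fold, adjusted p 0.00119) and by 1.22 with Nfib+Mycl1 (SE 0.28, 2.33-fold, adjusted p 0.00607), in every fit that left out 1 array. With Mycl1 the difference was -0.60 (SE 0.28, adjusted p 0.16). The response to Nfib was stronger in 3151T4, at -2.46 (SE 0.26, 5.51-fold, adjusted p 2.04e-05), than in 3583T3, at -0.98 (SE 0.26, 1.98-fold, adjusted p 0.0325), a difference between the lines of -1.48 (SE 0.37, adjusted p 0.0306). That difference was -1.77 (adjusted p 0.00305) without the 2 arrays that go against their labels. It missed the threshold in 6 of the 16 fits that left out 1 array (any control array, 3583T3 Nfib replicate 1 or 3151T4 Nfib replicate 4), at -1.64 to -1.19 and adjusted p of 0.054 to 0.14. The call within 3583T3 was lost without either 3583T3 control array or without the array labelled 3583T3 Nfib replicate 2, at -1.15 to -0.69 and adjusted p of 0.071 to 0.352.

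Tgfb1 and Tgfb3 encode the other TGF-beta isoforms, and neither was called over both lines against control. Tgfb1 read 4.97 and 3.81 with Nfib, 4.77 and 4.52 with Mycl1, 4.18 and 5.13 with Nfib+Mycl1, and 5.22 and 5.28 in control in 3583T3. In 3151T4 it read 6.48 and 7.03 with Nfib, 5.62 and 6.66 with Mycl1, 6.05 and 6.44 with Nfib+Mycl1, and 7.42 and 7.14 in control. Every vector array of a line was thus below both of its control arrays, with differences of -0.69 (SE 0.30, adjusted p 0.194), -0.88 (SE 0.30, adjusted p 0.0753) and -0.81 (SE 0.30, adjusted p 0.0552) for Nfib, Mycl1 and Nfib+Mycl1. When the 2 arrays that go against their labels were left out, Tgfb1 passed with Mycl1 (-0.88, adjusted p 0.0171) and with Nfib+Mycl1 (-1.01, adjusted p 0.00751).

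Tgfb3 was the ligand whose signal differed in sign between vectors. In 3583T3 it read 9.36 and 8.84 with Nfib, 8.26 and 8.22 with Mycl1, 8.71 and 8.95 with Nfib+Mycl1, and 8.59 and 8.70 in control. In 3151T4 it read 10.35 and 10.35 with Nfib, 9.23 and 9.20 with Mycl1, 9.08 and 9.53 with Nfib+Mycl1, and 9.84 and 9.92 in control. In each line the Nfib arrays lay above and the Mycl1 arrays below both control arrays. Over both lines the differences from control were 0.46 with Nfib (SE 0.17, adjusted p 0.119), -0.53 with Mycl1 (SE 0.17, adjusted p 0.0609) and -0.20 with Nfib+Mycl1 (SE 0.17, adjusted p 0.404). After leaving out the 2 arrays that go against their labels, Nfib (0.60, adjusted p 0.0244) and Mycl1 (-0.53, adjusted p 0.0162) both passed.

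Ltbp1 encodes a latent TGF-beta binding protein that anchors the inactive complex in the matrix. In 3583T3 it read 13.03 and 12.96 with Nfib, 12.26 and 12.84 with Mycl1, 12.78 and 12.89 with Nfib+Mycl1, and 12.89 and 12.77 in control, groups that overlapped except for Nfib. In 3151T4 it read 12.92 and 12.93 with Nfib, 12.77 and 12.54 with Mycl1, 12.42 and 12.41 with Nfib+Mycl1, and 13.05 and 13.24 in control, with all vector arrays below control. Over both lines no change passed (-0.03, adjusted p 0.938 with Nfib, -0.38, adjusted p 0.0846 with Mycl1, and -0.36, adjusted p 0.0621 with Nfib+Mycl1). In 3151T4 alone Ltbp1 fell by 0.72 with Nfib+Mycl1 (SE 0.16, 1.65-fold, adjusted p 0.00553), a call lost without 3151T4 control replicate 4 (-0.63, adjusted p 0.0577).

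Tgfbr3, the betaglycan co-receptor gene, was at the floor of the array without Nfib, and only 3 Nfib arrays brought it past the filter, so its differences are given as a description. In 3583T3 it read 3.54 and 4.39 with Nfib, 2.31 and 2.59 with Mycl1, 3.81 and 3.21 with Nfib+Mycl1, and 2.15 and 2.46 in control. In 3151T4 it read 4.89 and 4.90 with Nfib, 2.54 and 2.45 with Mycl1, 2.95 and 2.98 with Nfib+Mycl1, and 2.89 and 2.71 in control. The Nfib arrays lay above every Mycl1 and control array. The log2 difference from control with Nfib was 1.66 in 3583T3 and 2.09 in 3151T4, or 1.88 over both lines. With Nfib+Mycl1, where all 4 arrays so labelled were below the filter, it was 1.20 in 3583T3 and 0.16 in 3151T4. With Mycl1 it was -0.08 over both lines. The 4.39 and 3.21 in 3583T3 came from the 2 arrays that go against their labels. The other 3583T3 arrays of these groups read 3.54 with Nfib and 3.81 with Nfib+Mycl1. The order of 1.66 and 1.20 in that line therefore rests on those labels. Without the 2 arrays, the difference over both lines was 1.85 with Nfib and 0.65 with Nfib+Mycl1.

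Tgfbr1, the type I receptor gene, fell with Nfib+Mycl1. On its brightest probe set, 1420895_at, it read in 3583T3 10.30 and 10.09 with Nfib, 9.86 and 10.29 with Mycl1, 9.62 and 9.56 with Nfib+Mycl1, and 10.35 and 10.07 in control. Its 3151T4 values were 9.51 and 9.50 with Nfib, 9.69 and 9.14 with Mycl1, 8.58 and 8.99 with Nfib+Mycl1, and 9.62 and 9.73 in control. Within each line the arrays labelled Nfib+Mycl1 were the lowest, and they did not overlap any other group of that line. In 3583T3 the 9.56 with Nfib+Mycl1 and the 10.09 with Nfib came from the 2 arrays that go against their labels. The separation in 3583T3 therefore rests on those labels. Without those 2 arrays the difference from control with Nfib+Mycl1 was -0.59 in 3583T3 and -0.76 (adjusted p 0.00392) over both lines. Tgfbr1 fell by 0.75 with Nfib+Mycl1 (SE 0.15, 1.68-fold, adjusted p 0.00268), in every fit that left out 1 array, and differed by -0.09 with Nfib (adjusted p 0.788) and -0.20 with Mycl1 (adjusted p 0.377). The dimmer probe set 1420894_at, at 3.63 to 5.79, gave 0.16 with Nfib+Mycl1 (SE 0.39, adjusted p 0.775), so the 2 probe sets of this gene disagreed.

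Tgfbr2, the type II receptor gene that binds ligand first, fell with Mycl1. On 1426397_at it read in 3583T3 12.57 and 12.18 with Nfib, 11.98 and 11.75 with Mycl1, 12.40 and 12.67 with Nfib+Mycl1, and 12.18 and 12.38 in control. The 3151T4 values were 12.41 and 11.98 with Nfib, 11.30 and 11.53 with Mycl1, 11.86 and 11.70 with Nfib+Mycl1, and 12.20 and 12.11 in control. The 4 Mycl1 arrays lay below the 4 control arrays. Tgfbr2 fell by 0.58 with Mycl1 (SE 0.14, 1.49-fold, adjusted p 0.0275), and differed by 0.07 with Nfib (adjusted p 0.856) and -0.06 with Nfib+Mycl1 (adjusted p 0.775). The Mycl1 call was lost in 5 of the 16 fits that left out 1 array (3583T3 control replicate 2, either 3151T4 control array or either 3151T4 Mycl1 array), at -0.61 to -0.51 and adjusted p of 0.0516 to 0.0828. The dimmer probe set 1425444_a_at gave -0.56 with Mycl1 (SE 0.29, adjusted p 0.207). With Nfib+Mycl1 this probe set read 5.45 and 6.08 in 3583T3, against 5.02 and 4.91 in control, and 4.13 and 4.37 in 3151T4, against 5.40 and 4.92 in control. Its groups did not overlap in either line, and the directions were opposite. The 6.08 came from the array labelled 3583T3 Nfib+Mycl1 replicate 2, which goes against its label. Without the 2 arrays that go against their labels the 3583T3 difference was 0.48. The difference from control was 0.80 in 3583T3 (SE 0.26, adjusted p 0.0655) and -0.91 in 3151T4 (SE 0.26, adjusted p 0.0208), and the difference between the lines was -1.71 (SE 0.37, adjusted p 0.0145). That difference missed the threshold in 4 of the 16 fits that left out 1 array (3583T3 control replicate 2, 3583T3 Nfib+Mycl1 replicate 2, 3151T4 control replicate 3 or 3151T4 Nfib+Mycl1 replicate 3), at -1.65 to -1.39 and adjusted p of 0.0552 to 0.0809. The 3151T4 fall was lost without that line's control replicate 3 or Nfib+Mycl1 replicate 3, at -0.67 (adjusted p 0.141) and -0.79 (adjusted p 0.128) in that order. On the brighter probe set the corresponding difference between the lines was -0.63 (SE 0.25, adjusted p 0.214).

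Smad7, the inhibitory SMAD gene that TGF-beta itself induces, fell with Nfib+Mycl1, and Smad3, a receptor-activated SMAD gene, was not called with any vector. Smad7 read in 3583T3 10.29 and 9.07 with Nfib, 10.18 and 10.15 with Mycl1, 9.57 and 10.14 with Nfib+Mycl1, and 10.57 and 10.46 in control. The lowest 3583T3 values, 9.07 and 9.57, were on the array labelled 3583T3 Nfib replicate 2 and on 3583T3 Nfib+Mycl1 replicate 1, the arrays of these groups that carried the Mycl transgene signal. In 3151T4 Smad7 read 9.84 and 9.46 with Nfib, 9.73 and 9.66 with Mycl1, 9.06 and 9.20 with Nfib+Mycl1, and 10.13 and 9.50 in control, and the Nfib+Mycl1 arrays were the lowest of that line. Smad7 fell by 0.67 with Nfib+Mycl1 (SE 0.24, 1.59-fold, adjusted p 0.0447). This call was lost in 11 of the 16 fits that left out 1 array (any control array but 3151T4 replicate 4, any Mycl1 array, any Nfib+Mycl1 array but the one labelled 3583T3 replicate 2, or 3151T4 Nfib replicate 4), at -0.67 to -0.59 and adjusted p of 0.0506 to 0.117, and it was -0.79 (adjusted p 0.00205) without the 2 arrays that go against their labels. The differences with Nfib (-0.50, SE 0.24, adjusted p 0.231) and Mycl1 (-0.24, SE 0.24, adjusted p 0.53) did not pass. Smad3 on 1450472_s_at averaged 4.53 ± 0.20 with Nfib, 4.45 ± 0.71 with Mycl1, 4.49 ± 0.28 with Nfib+Mycl1 and 4.37 ± 0.52 in control (SD, n = 4 each), close to the filter, with differences of 0.16, 0.08 and 0.12 and adjusted p of 0.76, 0.84 and 0.722.

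Within single lines, with 2 arrays per group, the counts were smaller in 3583T3 for Mycl1 and Nfib+Mycl1. Nfib gave 5 called probe sets in 3583T3 (Tgfbr3 higher, Inhba and all 3 of Tgfb2 lower) and 3 in 3151T4 (Tgfbr3 higher, Inhba and Tgfb2 1423250_a_at lower), where 8.23% and 11.8% of all probe sets were called. Mycl1 gave 1 in 3583T3 (Tgfb2 1423250_a_at lower) and 3 in 3151T4 (Tgfb3, Tgfbr2 1426397_at and Inhba lower), against 2.39% and 15.1% of all probe sets. Nfib+Mycl1 gave 3 in 3583T3 (Tgfbr3 higher, Tgfb2 1450922_a_at and 1423250_a_at lower) and 6 in 3151T4 (Tgfb2 1423250_a_at, Tgfb3, Tgfbr1 1420895_at, Tgfbr2 1425444_a_at, Ltbp1 and Inhba lower), against 11.1% and 28.1%. The 3 Tgfbr3 calls among them rest on its entry through Nfib arrays and are given as a description. Of these 21 calls, 6 held in every fit that left out 1 array, namely Tgfbr3 with Nfib in each line, Inhba with Nfib and with Nfib+Mycl1 in 3151T4, and Tgfb2 1423250_a_at with Nfib and with Nfib+Mycl1 in 3583T3. Among the others, Tgfb2 1423250_a_at was lost with Nfib in 3151T4 without Nfib replicate 4 (-0.58, adjusted p 0.0668) and with Mycl1 in 3583T3 without control replicate 1 (-0.82, adjusted p 0.09). Tgfbr1 with Nfib+Mycl1 in 3151T4 was lost without control replicate 4 or Nfib+Mycl1 replicate 3, at -0.83 (adjusted p 0.0709) and -0.68 (adjusted p 0.102) in that order. The remaining calls were lost without 1 to 10 of the 16 arrays, with adjusted p up to 0.352. Without the 2 arrays that go against their labels, the counts in 3583T3 and 3151T4 were 3 and 3 with Nfib (5.54% and 15.5% of all probe sets), 2 and 5 with Mycl1 (9.1% and 21.2%) and 4 and 8 with Nfib+Mycl1 (17.5% and 32.1%), where the lone remaining array of a 3583T3 group was assumed to vary like the other groups. A test of the difference in response between the lines called 1 probe set for Nfib (Inhba, where 5.61% of all probe sets were called), 0 for Mycl1 (1.43%, with 2 at an unadjusted p under 0.05) and 1 for Nfib+Mycl1 (Tgfbr2 1425444_a_at, where 4.94% were called). Without the 2 arrays that go against their labels these counts were 1 (6.01%), 0 (2.9%) and 2 (6.91%), the added probe set being Tgfbr3, which was below the filter on every Nfib+Mycl1 and control array.

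**Figure D3:**
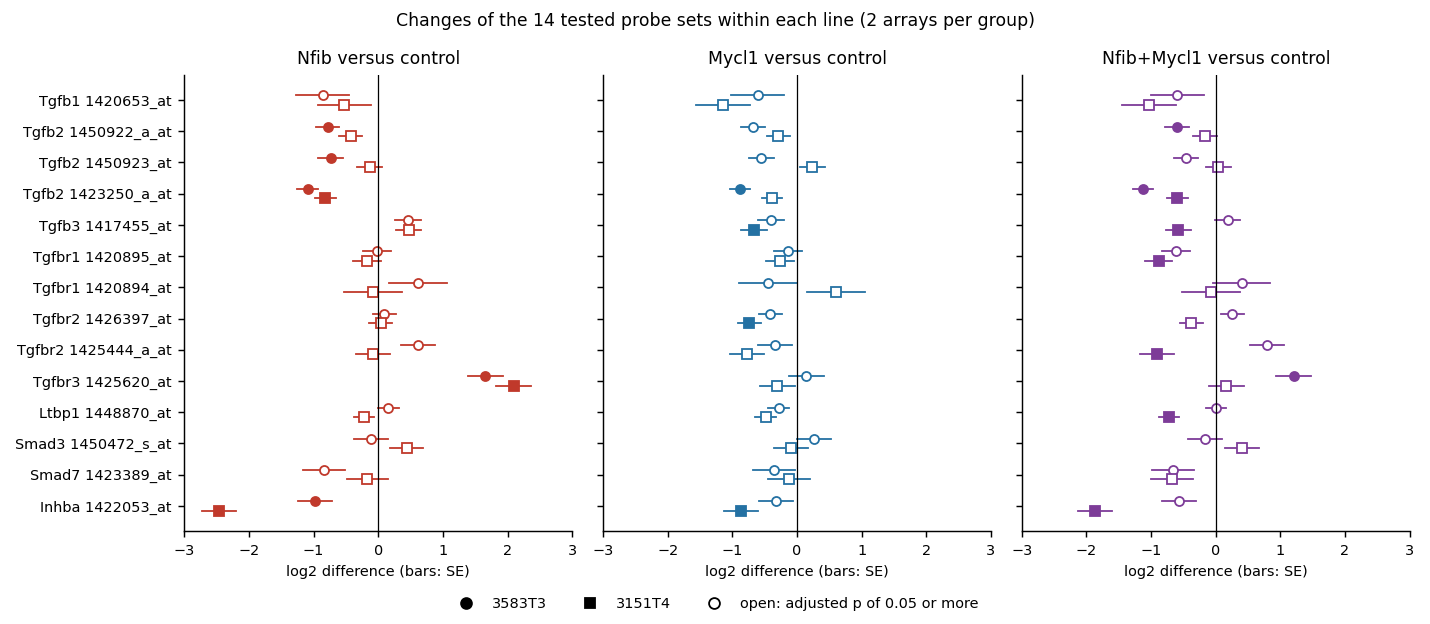
Log2 difference from control (horizontal axis, bars SE) of the 14 tested probe sets (vertical axis) within 3583T3 (circles) and 3151T4 (squares) for Nfib, Mycl1 and Nfib+Mycl1, 2 arrays per group; filled symbols passed an adjusted p of 0.05. Inhba with Nfib lay at -0.98 in 3583T3 and -2.46 in 3151T4, and Tgfbr2 1425444_a_at with Nfib+Mycl1 at 0.80 and -0.91.

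Apart from the vectors, the lines themselves differed in most members, with all ligand genes but Inhba brighter in 3151T4 and the receptor and SMAD genes mostly dimmer. Over all vectors, 11 of the 14 probe sets were called, 5 higher and 6 lower in 3151T4, but 58.1% of all probe sets were called between the lines. Without the 2 arrays that go against their labels the count was 10 (5 higher, 5 lower, 57.2% of all probe sets). Tgfb1 averaged 6.61 ± 0.59 in 3151T4 and 4.73 ± 0.53 in 3583T3 (SD, n = 8 each), a difference of 1.87 (SE 0.21, 3.66-fold, adjusted p 2.53e-06) with no overlap. Tgfb2 was higher in 3151T4 on all 3 probe sets, by 0.84 to 1.64, although on the control arrays alone 1450923_at gave 0.36 (adjusted p 0.183), and Tgfb3 by 0.99 (SE 0.12, adjusted p 5.7e-06). Tgfbr1 was lower in 3151T4 by 0.67 (SE 0.10, adjusted p 4.81e-05) on its brighter probe set and by 0.96 on the other, Smad3 by 0.62 (adjusted p 0.00395) and Smad7 by 0.48 (adjusted p 0.0221). The Smad7 call was lost without 3583T3 Nfib replicate 1 or 3151T4 control replicate 4, at -0.41 and -0.40 and adjusted p of 0.0519 and 0.0525. Tgfbr2 1426397_at was lower by 0.38 (adjusted p 0.00524) over all vectors and gave -0.12 (adjusted p 0.599) on the control arrays alone. For Tgfbr2 1425444_a_at the line difference of -0.51 (adjusted p 0.0406) was lost in 10 of the 16 fits that left out 1 array, at -0.54 to -0.37 and adjusted p up to 0.0896, held without either 3583T3 control array, 3583T3 Mycl1 replicate 1, the array labelled 3583T3 Nfib replicate 2, 3151T4 control replicate 3 or 3151T4 Mycl1 replicate 4, and it was 0.20 (adjusted p 0.473) on the control arrays alone. Inhba differed by -0.23 over all vectors (adjusted p 0.336) and by 0.61 on the control arrays alone (adjusted p 0.0198), where 3151T4 read 10.63 and 10.44 and 3583T3 read 9.76 and 10.09.

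Setting the double vector against each single one asked what the second vector added, whose transgene, backbone and drug selection cannot be told apart. Nfib+Mycl1 against Mycl1, which adds the Nfib vector, called 0 of the 14 probe sets by limma, with 4 at an unadjusted p under 0.05, against 2.96% of all probe sets, and 0 without the 2 arrays that go against their labels (2.2%). The nearest were Tgfbr1 1420895_at (-0.55, SE 0.15, adjusted p 0.0532) and Tgfbr2 1426397_at (0.52, SE 0.14, adjusted p 0.0661). Tgfbr1 passed without 3583T3 Mycl1 replicate 1 (-0.63, adjusted p 0.038) or 3151T4 Mycl1 replicate 4 (-0.65, adjusted p 0.039), and Tgfbr2 without the array labelled 3583T3 Nfib replicate 2 (0.52, adjusted p 0.0456) or 3151T4 Nfib+Mycl1 replicate 4 (0.61, adjusted p 0.0382). Nfib+Mycl1 against Nfib, which adds the Mycl1 vector, called 3, all lower, against 15.3% of all probe sets, and 4, all lower, without those 2 arrays (25.5%), the fourth being Smad7 (-0.58, adjusted p 0.0195). Of all probe sets 2424 were called, but 0 without 3151T4 Nfib+Mycl1 replicate 3 or without 3151T4 Nfib replicate 4. One of the 3 was Tgfbr3, at -1.19, which was below the filter on all arrays labelled Nfib+Mycl1. It had entered the test through arrays labelled Nfib. Tgfb3 fell by 0.66 (SE 0.17, 1.58-fold, adjusted p 0.0233) and Tgfbr1 1420895_at by 0.66 (SE 0.15, 1.58-fold, adjusted p 0.0154). The Tgfbr1 call was lost without 3151T4 Nfib+Mycl1 replicate 3 (-0.56, adjusted p 0.0692) or 3151T4 Nfib replicate 4 (-0.66, adjusted p 0.0643). The Tgfb3 call was lost without any of the 4 arrays of 3151T4 Nfib and Nfib+Mycl1, at -0.65 to -0.49 and adjusted p of 0.0574 to 0.0908.

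The rest of the pathway was read from 6 further lists, with the brightest probe set per gene. Of all probe sets, 8.46%, 9.96% and 29% were called with Nfib, Mycl1 and Nfib+Mycl1. Without the 2 arrays that go against their labels these shares were 7.89%, 17.5% and 32.7%. Among 8 tested genes of latency and activation, 1 rose with Nfib, Ltbp2, which encodes a matrix protein of the latent binding protein family. Ltbp2 read 10.69, 10.26, 9.55 and 9.49 with Nfib and 8.65, 8.82, 7.0 and 7.66 in control, in the order of both 3583T3 and then both 3151T4 arrays, a rise of 1.96 (SE 0.47, adjusted p 0.0171) that was lost without either 3583T3 control or either 3151T4 Nfib array, at adjusted p up to 0.0671. In Nfib+Mycl1 against Mycl1 it was 1.85 higher (adjusted p 0.0476), lost without any of 12 arrays, at adjusted p up to 0.142. Thbs1, encoding thrombospondin 1, an activator of latent TGF-beta, was lower by 0.60 with Mycl1 (adjusted p 0.0436) and by 0.54 with Nfib+Mycl1 (adjusted p 0.0315). The first was lost without any control or Mycl1 array, 3583T3 Nfib+Mycl1 replicate 1 or either 3151T4 Nfib array, at adjusted p up to 0.135. The second was lost without any control or Nfib+Mycl1 array except replicate 2 of 3583T3, at adjusted p up to 0.11. Ltbp3 was lower with Nfib+Mycl1 by 0.37 (adjusted p 0.0445), a call lost without any control or Nfib+Mycl1 array and 3 others (adjusted p up to 0.139), and at 0.0653 without both arrays that go against their labels.

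Among 6 tested genes listed as other ligands, the bone morphogenetic protein gene Bmp4 rose with Nfib and with Nfib+Mycl1. Bmp1, which fell with both, is counted in this list but encodes a procollagen proteinase and not a ligand. Bmp4 read 10.30, 9.86, 11.61 and 11.51 with Nfib and 10.12, 10.04, 11.23 and 10.98 with Nfib+Mycl1, against 8.26, 8.01, 10.40 and 10.41 with Mycl1 and 8.59, 8.93, 10.63 and 10.53 in control, in the same order of arrays. Bmp4 rose by 1.15 with Nfib (SE 0.20, adjusted p 0.00236), by 0.93 with Nfib+Mycl1 (SE 0.20, adjusted p 0.00502) and by 1.32 in Nfib+Mycl1 against Mycl1 (SE 0.20, adjusted p 0.00285), each in all 16 fits that left out 1 array. Bmp1 fell by 1.05 with Nfib (adjusted p 0.0318, lost without any 3151T4 control or Nfib array or the array labelled 3583T3 Nfib replicate 2, up to 0.0949, and at 0.0506 without both arrays that go against their labels) and by 1.09 with Nfib+Mycl1 (adjusted p 0.0115, 16 of 16). Inhbb, the activin beta B gene, is named after its values were seen and fell by 2.07 with Nfib+Mycl1 (SE 0.54, adjusted p 0.0119, 16 of 16). With Mycl1 alone, 0 of the 6 genes of this list were called by limma (2 at an unadjusted p under 0.05). Without those 2 arrays 1 was called (Inhbb), beside 17.5% of all probe sets.

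Among 8 further receptor and co-receptor genes, Cd109, encoding a GPI-anchored TGF-beta co-receptor known to dampen signalling in keratinocytes, rose with both Nfib vectors. It read 6.94, 7.92, 8.0 and 8.03 with Nfib and 7.51, 7.05, 8.04 and 7.87 with Nfib+Mycl1, against 5.91, 5.64, 7.10 and 6.93 with Mycl1 and 5.56, 5.40, 6.40 and 6.41 in control. The rise was 1.78 with Nfib (SE 0.20, 3.44-fold, adjusted p 7.92e-05), 1.68 with Nfib+Mycl1 (SE 0.20, adjusted p 0.000176) and 1.22 in Nfib+Mycl1 against Mycl1 (SE 0.20, adjusted p 0.00544), in all 16 fits that left out 1 array. Acvr2b, an activin type II receptor gene, rose by 1.11 with Mycl1 (adjusted p 0.0113), and Acvr1, a type I receptor gene, fell by 0.76 with Nfib+Mycl1 (adjusted p 0.00387), each in 16 of 16. Of 12 tested genes for other SMADs and nuclear partners, 0 were called with Nfib or with Mycl1 alone by limma (2 and 3 at an unadjusted p under 0.05), and 3 with Nfib+Mycl1. With the 2 arrays that go against their labels left out, Tgif2 was called lower with Nfib and higher with Mycl1. The 3 with Nfib+Mycl1 were Skil, encoding the SMAD repressor SnoN (-0.37, adjusted p 0.0197), Trim33, encoding a SMAD-binding ubiquitin ligase (0.42, adjusted p 0.0377), and Smad4 (-0.42, adjusted p 0.038), the last named after its values were seen. Skil was lost without the array labelled 3583T3 Nfib+Mycl1 replicate 2 or 3151T4 control replicate 4 (adjusted p up to 0.0702). Trim33 was lost without either 3583T3 control array, 3151T4 control replicate 4 or any Nfib+Mycl1 array but the one labelled 3583T3 replicate 2 (up to 0.106). Smad4 was lost without 3583T3 control replicate 1, 3151T4 control replicate 4, either 3583T3 Nfib+Mycl1 array or 3151T4 Nfib+Mycl1 replicate 3 (up to 0.112), and at -0.32 (adjusted p 0.11) without both arrays that go against their labels. Smad2 rose by 0.40 in Nfib+Mycl1 against Nfib (adjusted p 0.0379), lost without any array of these groups but 3583T3 Nfib replicate 1 and Nfib+Mycl1 replicate 2 (up to 0.13).

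Among 10 tested inhibitors and turnover genes, 1 rose and 2 fell with Nfib, 1 fell with Mycl1, and 3 fell with Nfib+Mycl1. When the 2 arrays that go against their labels were left out, these counts became 1 and 1 with Nfib, 1 and 1 with Mycl1, and 0 and 2 with Nfib+Mycl1. The shares of all probe sets were then 7.89%, 17.5% and 32.7%. Fstl3, which encodes a follistatin-like protein that binds activin, fell with both Nfib vectors. Fstl3 read 8.16, 7.57, 6.63 and 6.29 with Nfib and 9.70, 9.78, 7.71 and 7.86 in control, a fall of 1.60 (SE 0.22, 3.03-fold, adjusted p 0.00039), and with Nfib+Mycl1 it fell by 1.01 (adjusted p 0.00509), both in 16 of 16 fits. Pmepa1, a TGF-beta induced gene whose product sequesters SMADs, fell by 0.37 with Nfib (adjusted p 0.0324, lost without any control array but 3583T3 replicate 2 or any Nfib array but 3583T3 replicate 1, up to 0.11, and 0.0742 without both arrays that go against their labels) and by 0.39 with Nfib+Mycl1 (adjusted p 0.01, 16 of 16). Fkbp1a, encoding FKBP12, which binds the type I receptor, is named after its values were seen and fell by 0.20 with Nfib+Mycl1 (adjusted p 0.0423), a call lost without any of 7 arrays (up to 0.132) and without both arrays that go against their labels (0.0678). Dcn, encoding the matrix proteoglycan decorin and also a fibroblast marker, was lower by 2.39 with Mycl1 (adjusted p 0.0484) and 3.27 higher in Nfib+Mycl1 than in Mycl1 (adjusted p 0.0266), and, named after its values were seen, 2.48 higher with Nfib (adjusted p 0.0452). These were lost without any of 11, 4 and 13 of the 16 arrays, at adjusted p up to 0.144, 0.0869 and 0.153, and without both arrays that go against their labels they were -2.39 (adjusted p 0.00364), 2.81 (adjusted p 0.0107) and 3.30 (adjusted p 0.00124).

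Of 23 tested target genes, 2 rose and 4 fell with Nfib, 1 fell with Mycl1, and 1 rose and 4 fell with Nfib+Mycl1, with list medians of -0.06, -0.21 and -0.26, beside the 8.46%, 9.96% and 29% of all probe sets called. Without the 2 arrays that go against their labels, 0 rose and 4 fell with Nfib (7.89% of all probe sets called). With Mycl1, 0 rose and 4 fell (17.5%), and with Nfib+Mycl1, 0 rose and 6 fell (32.7%). The Mycl1 share was thus close to the background and the Nfib+Mycl1 share not above it. Tgfbi, a TGF-beta induced matrix protein gene, fell by 2.17 with Nfib (SE 0.46, adjusted p 0.0082, 16 of 16) and by 1.67 with Mycl1 (SE 0.46, adjusted p 0.0357), the second lost without any Mycl1 array or any control array but 3583T3 replicate 1, at adjusted p up to 0.102. In 3583T3 Tgfbi differed within the groups as labelled, at 4.03 and 6.16 with Nfib and 6.25 and 4.22 with Nfib+Mycl1, against 6.17 and 7.25 in control. The 6.16 and the 4.22 came from the 2 arrays that go against their labels, so this spread rests on those labels. Ccn2, encoding connective tissue growth factor, read 10.79 to 12.34 with Nfib and 11.97 to 12.79 in control, a fall of 0.81 (SE 0.14, adjusted p 0.00218, 16 of 16). Cdkn2b, the p15 cell cycle inhibitor gene, fell by 1.38 with Nfib+Mycl1 (SE 0.28, adjusted p 0.00329) and Cdh2, encoding N-cadherin, by 0.74 (SE 0.15, adjusted p 0.00387), both in 16 of 16. The others called, named after their values were seen, were Tagln and Tpm1 (lower) and Postn and Col3a1 (higher) with Nfib, and Tgfbi and Itgb1 (lower) and Postn (higher) with Nfib+Mycl1, each but Tgfbi lost without 3 to 9 single arrays. The 3 higher calls were lost without the 2 arrays that go against their labels, at adjusted p of 0.102 to 0.106. In Nfib+Mycl1 against Nfib, Tpm1, encoding tropomyosin 1, was 0.87 higher (adjusted p 0.0132, lost without 3151T4 Nfib+Mycl1 replicate 3 or Nfib replicate 4, up to 0.0653). Ccn2 was 0.50 higher there (adjusted p 0.0291, lost without any 3151T4 array of these groups or the array labelled 3583T3 Nfib+Mycl1 replicate 2, up to 0.114, and 0.0578 without both arrays that go against their labels).

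Between the lines most of these lists moved in part, beside the 58.1% of all probe sets called. In 3151T4 against 3583T3, 3 genes of latency and activation were higher and 3 lower of 8. The counts were 4 and 1 of 6 genes listed as other ligands (Bmp1 included), and 1 and 5 of 8 other receptors. They were 1 and 6 of 12 SMADs and partners, 1 and 4 of 10 inhibitors, and 4 and 11 of 23 targets. The BMP antagonist gene Grem1 was lower by 5.61 (adjusted p 8.4e-10) and Emilin1, whose product holds back proTGF-beta processing, higher by 4.05 (adjusted p 2.63e-08). Bambi, encoding a pseudoreceptor that blocks TGF-beta signalling, was higher by 2.54 (adjusted p 8.38e-11), Bmp4 by 1.65, Bmp5 by 1.38 and the integrin gene Itgb5 by 1.06. Tagln was lower by 2.83, the co-receptor endoglin gene Eng by 1.37, the nuclear repressor gene Tgif1 by 1.13, Acvr2b by 0.94 and Smad2 and Ccn2 by 0.89 each. Each of these named line differences held in all 16 fits that left out 1 array.

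**Figure D4:**
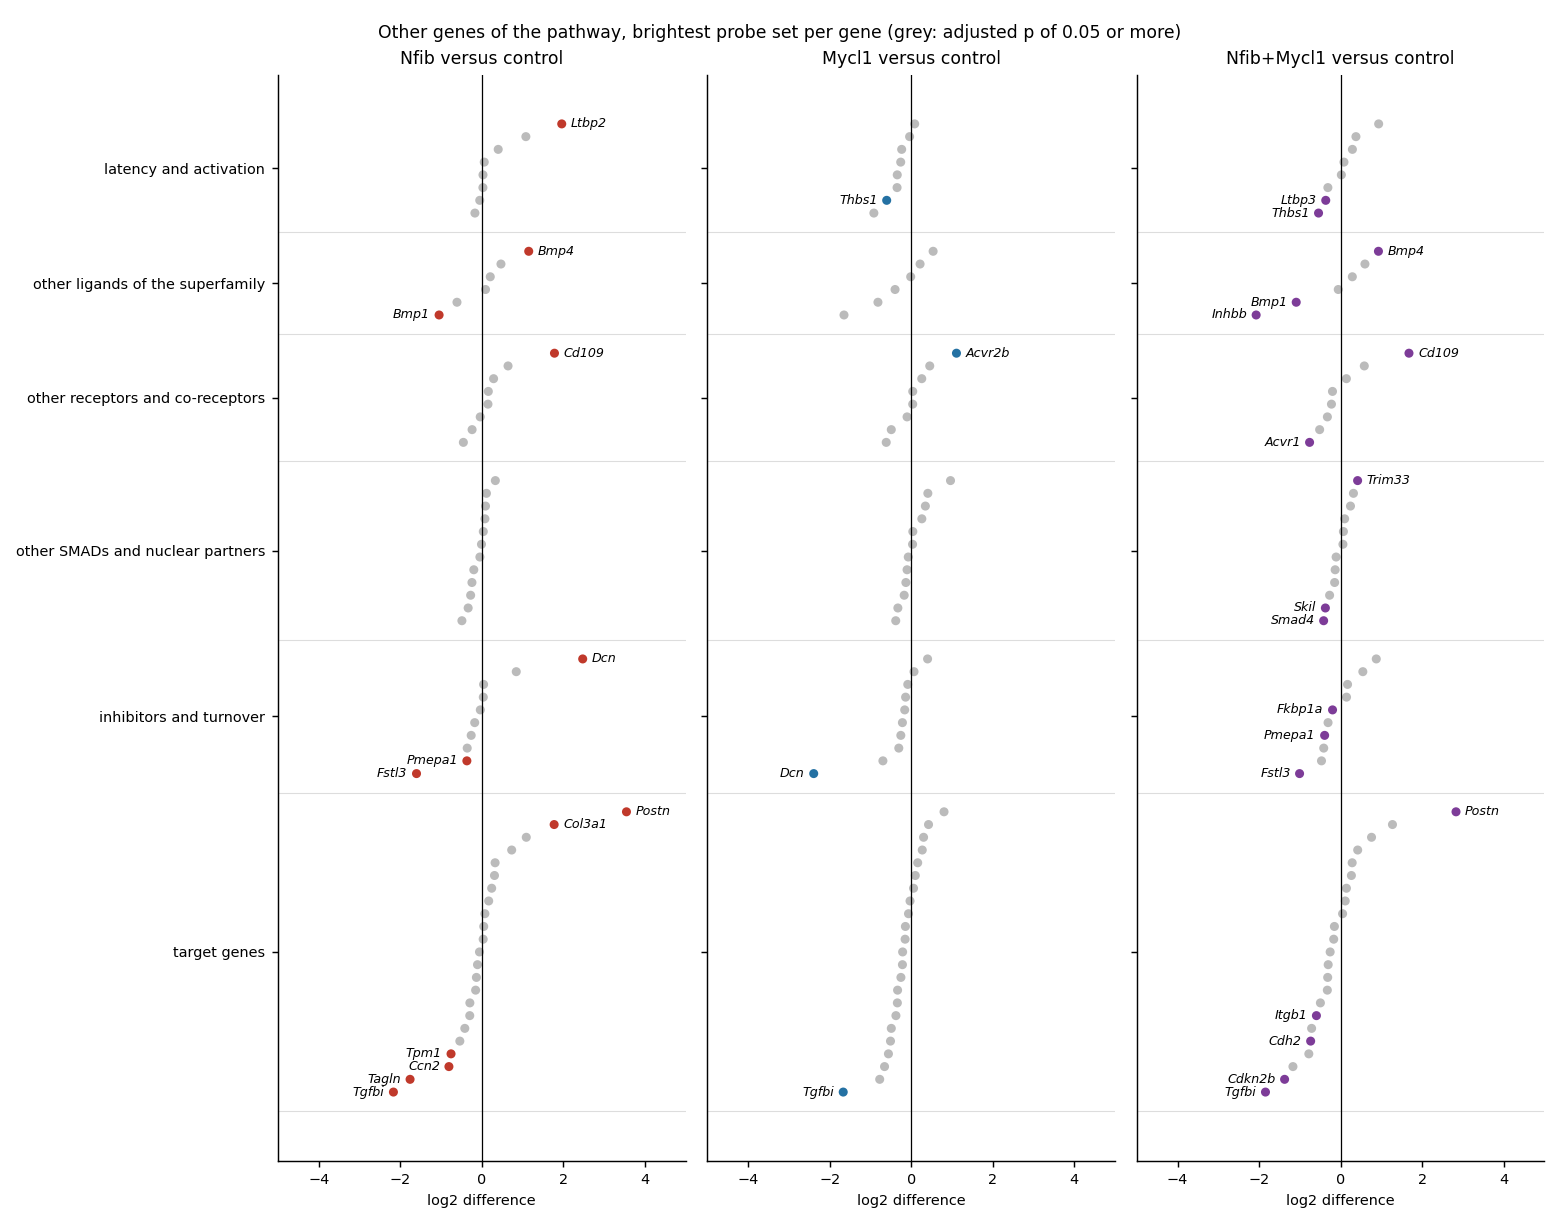
Log2 difference from control (horizontal axis) of the tested genes of 6 further lists of the pathway (vertical axis, sorted within a list) with Nfib, Mycl1 and Nfib+Mycl1, 1 point per gene and 4 arrays per vector; coloured, named points passed an adjusted p of 0.05. Cd109 and Bmp4 lie to the right in both Nfib panels, Fstl3 and Tgfbi to the left, and most genes stay near 0.

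Markers of other cell types were also called in these comparisons. Over all probe sets, 8.46%, 9.96% and 29% were called with Nfib, Mycl1 and Nfib+Mycl1. With Nfib, 8 of 14 fibroblast markers rose and 0 fell (median 1.38), and 7 rose and 0 fell without the 2 arrays that go against their labels. With Mycl1, 0 rose and 5 fell (median -0.17), and with Nfib+Mycl1, 3 rose and 1 fell (median 0.66). The Nfib+Mycl1 share was close to the background. Without those 2 arrays the Mycl1 and Nfib+Mycl1 counts stayed the same. The shares of all probe sets were then 7.89%, 17.5% and 32.7% with Nfib, Mycl1 and Nfib+Mycl1. The summed fibroblast marker signal, on the log2 scale, was 14.53 to 14.67 with Nfib, 13.78 to 14.18 with Mycl1, 14.63 to 14.70 with Nfib+Mycl1 and 13.75 to 13.97 in control in 3583T3. In 3151T4 it was 15.58 to 15.71 with Nfib, 14.28 to 14.41 with Mycl1, 14.88 to 15.04 with Nfib+Mycl1 and 14.95 on both control arrays. Of 6 tested epithelial markers, 4 fell with Nfib (median -1.49) and 0 were called with Mycl1 (0 at an unadjusted p under 0.05). With Nfib+Mycl1, 2 fell (3 without the arrays that go against their labels). All 6 were lower in 3151T4 than in 3583T3 (median -3.24), beside 58.1% of all probe sets called between the lines. The endothelial markers Pecam1, Cdh5, Tie1, Vwf and Cldn5 were at or below 2.94 on every array, although Esam reached 11.31 and Emcn 8.47 in 3583T3 control. The part of these markers in the changes of Tgfbr3, Tgfb2, Inhba and the ligand and matrix genes was not tested.

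The genes whose signal followed each member most closely over the 16 arrays were taken among 14351 probe sets with 1 gene name, as a description in which all points share the arrays and the vectors. The 2 closest to Tgfbr3 were Iigp1 (Pearson r 0.98) and Eln, encoding elastin (0.96), and the 2 closest to Inhba were Moxd1 (0.93) and Lgr6 (0.89). Tgfb1 was closest to Aplp1 and Rusc1 (0.97 each), Tgfb2 to Irf5 (0.95) and Glipr1 (0.95), and Tgfb3 to Xpr1 (0.97) and Srr (0.96). Among receptors and SMADs, Tgfbr1 was closest to Plscr1 and Ptbp3 (0.96 each), Tgfbr2 to Man2a1 and Plpp3 (0.89 each), Smad3 to Tjap1 (0.89) and Gprc5b (0.87), and Smad7 to Tpm2 and Ptprf (0.93 each). Ltbp1 varied by less than 1 over the group means and was not compared.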

How the data were processed

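Messenger RNA was measured in 16 samples of 2 mouse lines with 4 vector states, starting at 100 ng RNA with NuGEN Ovation V2 amplification before biotin labelling (per the labels' protocols). Signals per probe set were deposited on the log2 scale after GCRMA 2.20.0 by the authors, who used R 2.11.0 according to the submitters' processing notes; that the scale is log2 was read from the values. GCRMA is a method that corrects the background by probe sequence and normalizes arrays by quantiles, so a change of most genes in 1 direction would not be seen.

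The 64 control probe sets were left out, and genes were named only from the 20380 probe sets that the platform annotation pairs with 1 symbol (several for 691, none for 1555). Groups came from the sample titles and sources. The 15799 probe sets above log2 4 on at least 2 arrays were fitted together with R 4.3.3 and limma 3.58.1 (lmFit followed by eBayes, trend = TRUE), with Benjamini-Hochberg adjustment over all of them. Comparisons over both lines used additive vector and line terms (11 residual degrees of freedom), and changes within lines and their differences used 8 group means (8 degrees of freedom). The fit was tested on simulated data. Intervals are 95% confidence intervals, and the number of arrays limits the precision.

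Every probe set of the 10 genes is reported. From the other lists, up to 2 called genes per list and comparison with the smallest adjusted p were named, and others are said to be named after their values were seen. The 10 genes and all lists were chosen with earlier results of these data known. Of the listed genes, those without a singly named probe set were not analysed here. Whether replicate numbers pair the arrays was checked by the correlation of their deviations, which ran from -0.72 to 0.29. The -0.72 was between 3583T3 Nfib and Nfib+Mycl1, which hold the 2 arrays that go against their labels, so it cannot decide on pairing. No block was used in the main fit. Alternatives were other filters, normalizations, variance models, array weights, a replicate block, averaged replicates, other sets of arrays or means, each array left out in turn and, added after seeing the data, leaving out the 2 arrays whose Mycl signal goes against their labels. Promoters are RefSeq sequences of GRCm38.p6; the build behind the probe annotation is not given in the sources used here.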

Additional observations from a re-analysis of the deposited data

Results flagged for a closer look

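Responses of 2 probe sets differed between the lines by the test of the difference itself. The response of Inhba to Nfib, as 3151T4 minus 3583T3, was -1.48 (adjusted p 0.0306), with a fall in each line and a larger one in 3151T4. The response of Tgfbr2 1425444_a_at to Nfib+Mycl1, taken the same way, was -1.71 (adjusted p 0.0145), with differences from control of -0.91 in 3151T4 and 0.80 in 3583T3. Without the 2 arrays whose Mycl signal goes against their labels these were -1.77 (adjusted p 0.00305) and -1.39 (adjusted p 0.0238), and the Nfib+Mycl1 response of Tgfbr3 also passed (-1.34, adjusted p 0.0128), on signals below the filter in both groups. For Inhba, the starting level also differed, at 10.63 and 10.44 on the 3151T4 control arrays and 9.76 and 10.09 on the 3583T3 control arrays. For Tgfbr2, the brighter probe set 1426397_at gave -0.63 (adjusted p 0.214).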

How the results depend on the processing

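Of 49 calls of single probe sets, 44 held without the 2 arrays whose Mycl signal goes against their labels, 24 held under every setting other than leaving out 1 array, and 23 held in all 16 fits that left out 1 array. The 24 mix unlike calls. Calls within lines and of responses were not refitted with averaged replicates, only the arrays compared or 8 means, so they met fewer settings. Among calls between vectors over both lines, only Tgfb2 1423250_a_at with Nfib+Mycl1 against control held under every setting. Across settings, 2 values changed sign, both line differences on the control arrays alone, namely Tgfbr2 1425444_a_at (0.20, adjusted p 0.473) and Inhba (0.61, adjusted p 0.0198). Counts of called probe sets changed as follows. Averaging replicates to 8 values, which leaves fewer residual degrees of freedom, gave 0 for Nfib, 0 for Mycl1 and 1 for Nfib+Mycl1 against control and 0 for Nfib+Mycl1 against Nfib. Over all 15799 probe sets it gave 18, 5, 536 and 0 calls, in that order. For Mycl1 against control the count was 5 with array weights, 7 with only the arrays compared, 8 with 8 means, 5 without the 2 arrays named above and 1 to 5 with 1 array left out. Calls over all 15799 probe sets also went up there, to 3267, 3087, 3442 and 2770 under the first 4 of these settings, against 1574. With 1 array left out they ran from 223 to 2289. For Nfib+Mycl1 against control the count of members was 3 without the filter, 3 without the trend, 8 with array weights, 8 with 8 means and 3 to 6 with 1 array left out. Over all probe sets tested, 4450, 4385, 6233 and 5944 were called under the first 4 of these, and 2795 to 5013 with 1 array left out, against 4574. Nfib+Mycl1 against Mycl1 gave 1 with 1 probe set per gene, 4 with 8 means and 0 to 1 with 1 array left out, and against Nfib 0 to 3. Against Mycl1 the calls over all probe sets tested were 331, 1583 and 150 to 791 under these settings, beside 468 in the main fit. Against Nfib they were 0 to 3377 with 1 array left out, beside 2424. With 1 probe set per gene, 7 were called between the lines, of fewer tested, beside 5140 calls over all genes. With the replicate block, Mycl1 against control kept 1 call, beside 556 over all probe sets, and no cause was tested. Deviations of same-numbered arrays correlated at -0.72 to 0.29. The -0.72 came from the 3583T3 groups that hold the 2 arrays named above, so it cannot show whether the numbers pair arrays. The value was -0.44 between 3583T3 control and Mycl1 and -0.07 to 0.29 in 3151T4, and pairing stayed undecided.

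The dim probe sets of Tgfbr3, Smad3, Tgfbr1 and Tgfbr2, with signals from 2.15 to 6.08, limit what can be said of their changes, and 2 arrays per group limit every comparison within a line.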
